A study of Caenorhabditis elegans with 2 samples.

Results

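The HSP70, HSP90 and HSP60 chaperone genes of Caenorhabditis elegans were examined for peaks of the transcription factor CEH-32. They are hsp-1, hsp-3, hsp-4, hsp-6, hsp-60, hsp-90, hsp-110 and the J-protein gene dnj-13, 8 of the 19973 protein-coding genes on the nuclear chromosomes. A gene was linked to a peak when the summit, the highest point of the peak, lay from 1000 bp upstream to 500 bp downstream of the start of one of its protein-coding transcripts. The members were chosen by the positions and signals of these same peaks and by neighbouring gene starts. Their peak and neighbour counts are therefore a description, and no test was made on them.

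The study profiled CEH-32, a homeodomain protein of the sine oculis family, by chromatin immunoprecipitation followed by sequencing. There was 1 group of 2 replicates from separate biosamples, and no comparison between conditions was possible. Both replicates were whole hermaphrodite L4 larvae of strain OP516, genotype unc-119(tm4063) III; wgIs516, collected 52 hours after synchronization as starved L1 larvae obtained by bleaching. They carried a transgene for CEH-32 with a GFP-FLAG tag at its C-terminal end, and the sample descriptions give an antibody against GFP for the precipitation, whereas the antibody field of the labels reads ceh-32. The tagged copy came from a transgene in 1 strain, and whole larvae mix all cell types, so the cells in which a peak arose are unknown. The values are peak lists on build ce11, and the signal of a peak is the number that the authors' peak caller gave it. Read depth is unknown, and lists are therefore compared mainly by counts and by ranks within a list. Ratios of signal between the replicates are only described, beside those of all matched optimal peaks.

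Chaperones bind unfolded proteins and help them fold, and those of the HSP70, HSP90 and HSP60 families do so in cycles driven by ATP. HSP70 proteins work with J-proteins, which deliver clients and start ATP hydrolysis, and with nucleotide exchange factors such as HSP110, while HSP90 acts on clients that are partly folded and HSP60 encloses them in a chamber inside mitochondria. Many of these genes carry a heat shock element in their promoter, the site of the heat shock factor HSF-1, and the genes for the endoplasmic reticulum (ER) answer to the unfolded protein response through XBP-1.

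The sequences under the 6 optimal summits found at members are shown because the positions of motifs in them are described further on. They were read from the RefSeq genome of build ce11 (WBcel235), 5′ to 3′ on the strand of the chaperone gene. The stretches are III:1619071-1619171 on the plus strand for hsp-60, V:14685710-14685810 (plus) for hsp-90, III:8447096-8447196 (minus) for hsp-110, IV:17278532-17278632 (plus) for hsp-1 and II:11545456-11545556 (plus) for dnj-13. Each of these has the summit in the middle, with 50 bases on either side. For hsp-3 the stretch is X:6092125-6092274 on the minus strand, the 150 bases upstream of the outermost start, and the summit is 4 bp upstream of that start. Capitals mark the GA-repeat hexamer GAGAGA or its complement TCTCTC, heat shock element letters, CCAAT or its complement ATTGG, and TGACGTG.
hsp-60: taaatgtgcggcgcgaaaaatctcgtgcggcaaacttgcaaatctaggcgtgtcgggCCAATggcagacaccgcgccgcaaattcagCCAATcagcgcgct
hsp-90: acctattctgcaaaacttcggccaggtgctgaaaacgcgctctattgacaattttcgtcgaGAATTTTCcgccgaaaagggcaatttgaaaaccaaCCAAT
hsp-110: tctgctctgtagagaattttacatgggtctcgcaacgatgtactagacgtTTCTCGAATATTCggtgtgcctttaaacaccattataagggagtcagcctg
hsp-1: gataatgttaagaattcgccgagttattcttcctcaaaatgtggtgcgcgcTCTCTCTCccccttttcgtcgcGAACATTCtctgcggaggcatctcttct
dnj-13: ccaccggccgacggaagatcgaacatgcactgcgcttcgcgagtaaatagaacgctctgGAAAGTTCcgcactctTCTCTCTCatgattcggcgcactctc
hsp-3: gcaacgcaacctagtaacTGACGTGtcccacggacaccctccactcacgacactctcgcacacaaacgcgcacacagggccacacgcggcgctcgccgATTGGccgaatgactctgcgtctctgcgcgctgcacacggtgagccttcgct

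Of the 8 chaperone genes, 6 had a peak in the authors' optimal list, their list of reproducible peaks. They were hsp-60, hsp-90, hsp-110, hsp-1, dnj-13 and hsp-3, against 281 of all 19973 genes, or 1.41%. The same 6 had a peak in the longer, relaxed list called on the pooled replicates, where 20.1% of all genes had one. The optimal peaks are the 412 strongest of that relaxed list, so every gene with an optimal peak also has a relaxed one. Those 6 also had a summit in the window in both replicates, against 12.6% of all genes. Replicate 1 alone gave 7 of the 8, with hsp-6 added, against 25.3% of all genes, and replicate 2 alone gave 6 of the 8, against 25.5%. All 6 members with a relaxed peak had an optimal one, against 7.02% of all genes with a relaxed peak. The members were chosen on these peaks, so nothing is read from the shares. The pooled relaxed list is described by its title as peaks and background. The −log10 of its q-values begins at 0.0173, and that of both replicate lists at 0.0178. A weak entry in a relaxed list therefore need not be a true peak. A peak linked to neighbouring genes counts for each of them.

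**Figure D1:**
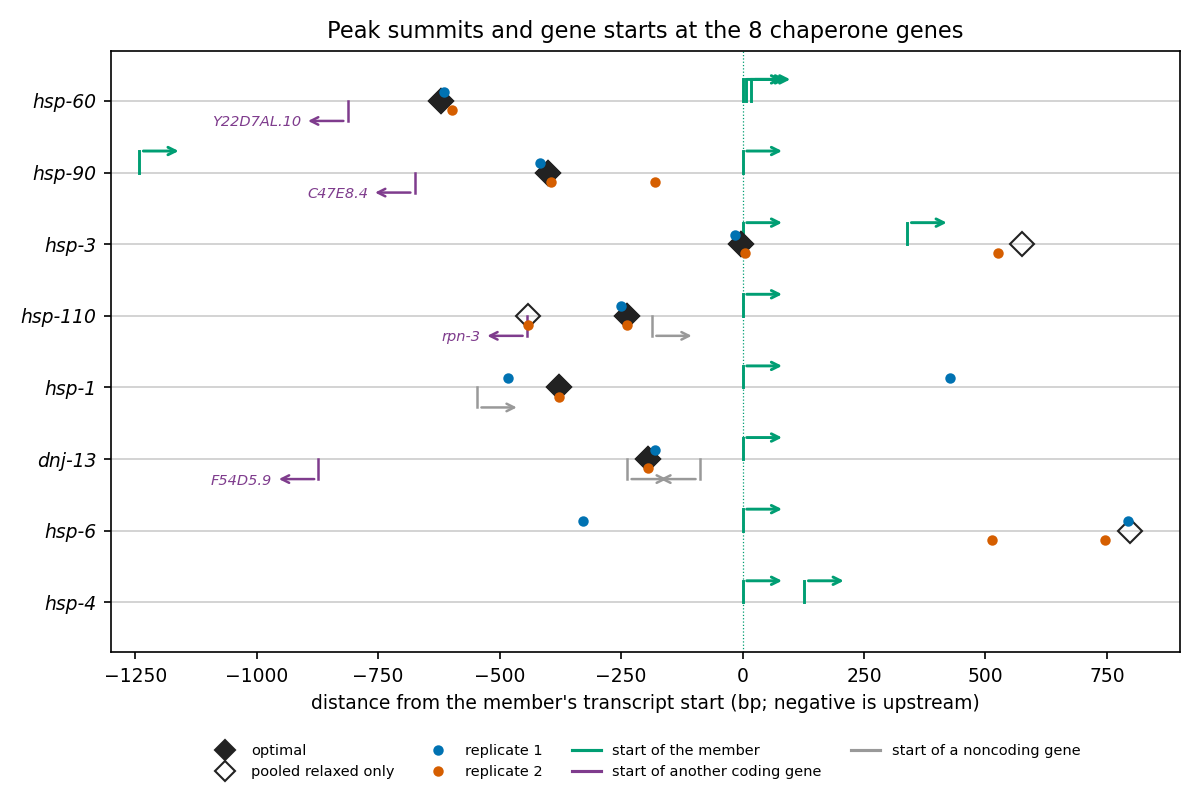
Summits (diamonds for the optimal and pooled relaxed lists, circles for the replicates) and gene starts (arrows) at the 8 chaperone genes, by distance in bp from a transcript start of the member, negative upstream. That start is the one nearest the optimal summit, or the outermost one where there is no optimal summit. The 6 optimal summits lie between 621 bp and 4 bp upstream of that start, and none was found at hsp-6 or hsp-4; inner starts and summits beyond the axis (hsp-60, hsp-3 and hsp-4) are not drawn.

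Among the mitochondrial chaperone genes, hsp-60 had the strongest pooled peak of the 8 genes and hsp-6 had no optimal one. In replicate 1 the peak at hsp-90 was stronger than that at hsp-60. The gene hsp-60 (WBGene00002025, III:1619742-1625803, plus strand) encodes the mitochondrial chaperonin. Its optimal peak at III:1618911-1619330 had a signal of 170 and ranked 52 among the 388 optimal peaks on nuclear chromosomes. Replicate 1 had this peak at a signal of 75.7 and replicate 2 at 94.0, with summits 16 bp apart. The pooled summit, III:1619121, was between genes and 621 bp upstream of the first hsp-60 start. On its other side, 192 bp away, was the start of Y22D7AL.10 (WBGene00021248), which RefSeq names as the mitochondrial 10 kDa heat shock protein, the co-chaperonin that caps HSP60. The pair is transcribed in opposite directions from starts 813 bp apart, so the peak lies between the genes for the chamber and its lid, and nearer to the lid gene. Replicate 1 had a second, weak hsp-60 peak with a signal of 13.1 in an intron, which replicate 2 and the pooled lists lacked in the window.

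The gene hsp-6 (WBGene00002010, V:4824124-4826760, minus strand) encodes the mitochondrial HSP70. Its closest pooled relaxed summit was 797 bp downstream of the start, inside the gene and beyond the 500 bp limit, with a signal of 48.0 and rank 1606 in the relaxed list, mitochondrial peaks included. Replicate 1 had a summit at 794 bp (signal 17.8) and replicate 2 had summits at 746 bp (26.4) and 513 bp (18.8), all inside the gene. Both replicates therefore had weak entries in the gene body, outside the promoter window. The −log10 of the q-value was 0.268 in replicate 1, and 0.390 and 0.0745 in replicate 2. It was 0.759 for the pooled entry, so these entries may be background. The 1 summit inside the window was in replicate 1, 329 bp upstream of the start, with a signal of 14.9 and a −log10 q-value of 0.105. It overlapped the noncoding genes C37H5.15 and C37H5.16 and was 271 bp from the start of the divergent gene C37H5.5. Replicate 2 had no summit in the window. The nearest optimal peak was 222787 bp away.

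The cytosolic chaperone genes hsp-90, hsp-110, hsp-1 and dnj-13 all had an optimal peak. The gene hsp-90 (WBGene00000915, V:14684918-14688545, plus strand) encodes the cytosolic HSP90, and its peak at V:14685550-14685969 had the next highest pooled signal of the members, 153, at rank 66. The signal was 82.3 in replicate 1 and 71.4 in replicate 2, with summits 21 bp apart. The pooled summit, V:14685760, was 400 bp upstream of the inner hsp-90 start, which is also the RefSeq start. It was 842 bp downstream of the outer start, in an intron of the longer transcript. The start of C47E8.4 (WBGene00008143), on the opposite strand and named a FAM50 homolog by RefSeq, was nearer, at 275 bp. Replicate 2 also had a weak summit, V:14685979, with a signal of 18.7.

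The other cytosolic members had signals below the median of the nuclear optimal peaks, which was 106. The gene hsp-110 (WBGene00016250, III:8443910-8446909, minus strand) encodes the exchange factor of the HSP70 family. Its peak at III:8446936-8447355 had a signal of 98.0 and rank 236, with 36.7 in replicate 1 and 61.9 in replicate 2. The summit, III:8447146, was 237 bp upstream of hsp-110, 207 bp upstream of the divergent gene rpn-3 (WBGene00004460), which encodes a regulatory subunit of the proteasome, and 51 bp from the noncoding gene C30C11.14. This stretch of DNA thus lies between a chaperone gene and a proteasome gene whose starts are 444 bp apart. A weaker summit, III:8447350, was 3 bp from the start of rpn-3, with a signal of 31.3 in the pooled list and 25.9 in replicate 2. Replicate 1 had no second summit in the hsp-110 window.

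The gene hsp-1 (WBGene00002005, IV:17278959-17281330, plus strand) encodes the constitutive cytosolic HSP70. Its peak at IV:17278372-17278791 had a signal of 95.4 and rank 257, with 40.2 in replicate 1 and 53.0 in replicate 2. The replicate summits were 105 bp apart, the widest gap among the 6 members, whose other gaps ran from 13 to 21 bp. The pooled and replicate 2 summits were between genes, 377 and 378 bp upstream of hsp-1, while the replicate 1 summit, 483 bp upstream, fell in the noncoding gene F26D10.23. The start of that noncoding gene was 169 bp from the pooled summit, and the nearest other coding start, of clec-196, was 1045 bp away. Replicate 1 had a further summit with a signal of 21.6 in the coding sequence, 428 bp downstream of the hsp-1 start.

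The gene dnj-13 (WBGene00001031, II:11545701-11547360, plus strand) encodes a J-protein of the B class. Its peak at II:11545296-11545715 had the lowest signal of the 6, 93.8 at rank 272, with 53.2 in replicate 1 and 38.4 in replicate 2. The lowest signal of any nuclear optimal peak was 81.6, so all 6 members were above the end of the list. The summit was 195 bp upstream of dnj-13, inside a pair of noncoding genes named F54D5.22 that cover the same bases on both strands, and in an intron of dhgd-1. The nearest other coding start, of F54D5.9 on the opposite strand, was 678 bp away.

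The ER members differed from each other in these lists, although both encode the ER HSP70 known as BiP. The gene hsp-3 (WBGene00002007, X:6089028-6092124, minus strand) had a peak at X:6091918-6092337 with a signal of 102 and rank 216. The signal was 61.6 in replicate 1 and 42.2 in replicate 2, with summits 21 bp apart. The pooled summit was 4 bp upstream of the outermost start and 343 bp upstream of the start that RefSeq gives. Weaker summits lay inside the gene, in a coding exon with a pooled signal of 36.4 (15.8 in replicate 1, 20.4 in replicate 2), and in an intron with a pooled signal of 30.5. No other coding start was within 1000 bp of the optimal summit, and the nearest was that of C15H9.5 at 1172 bp.

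The gene hsp-4 (WBGene00002008, II:7350112-7352645, minus strand) had no peak in the window of any of its 3 starts in any of the 4 lists. Its nearest summits lay downstream, 1814 bp from a start in the pooled relaxed list (signal 32.5), 1917 bp in replicate 1 (21.9) and 1820 bp in replicate 2 (16.6). They were between genes, beyond the far end of hsp-4. The nearest optimal summit was 167241 bp away. A gene without a peak in these lists is not shown to be unbound, since the depth that limits detection is unknown.

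**Figure D2:**
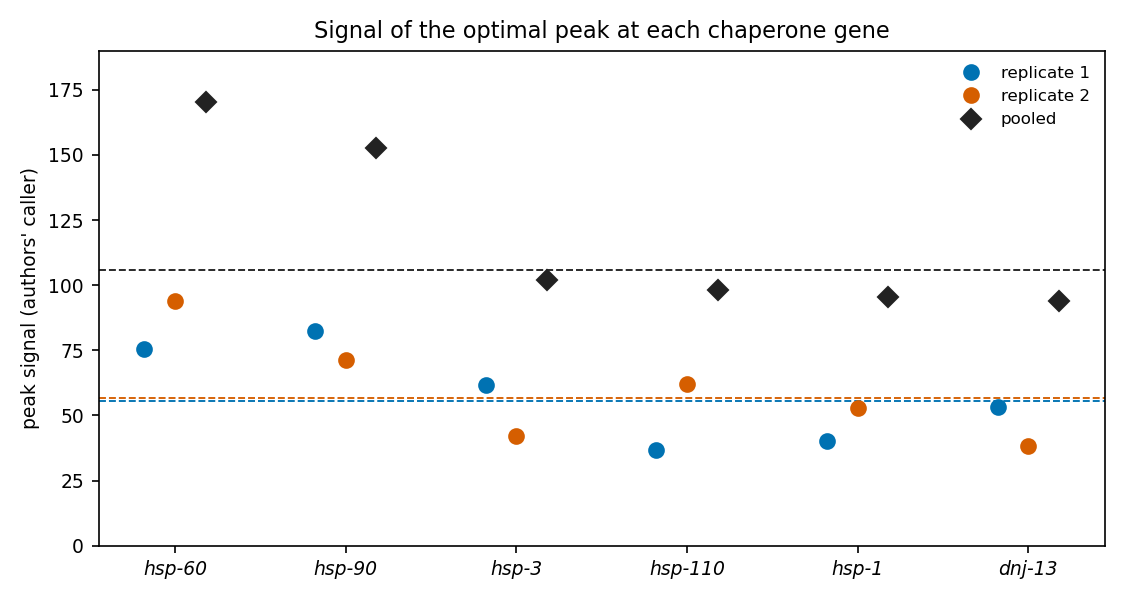
Signal of the optimal peak at each chaperone gene (y axis, in units of the authors' peak caller) in replicate 1, replicate 2 and the pooled list; dashed lines are the medians of the nuclear optimal peaks in the same colours. The peaks at hsp-60 and hsp-90 lie above all 3 medians and those at hsp-1 and dnj-13 below all 3.

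The signal plot shows that hsp-60 and hsp-90 were above the median of matched nuclear optimal peaks in both replicates, which was 55.5 in replicate 1 (385 of 388 matched within 150 bp) and 56.6 in replicate 2 (378 of 388). The gene hsp-1 was below the median in both. So was dnj-13, while hsp-3 was above it in replicate 1 only and hsp-110 in replicate 2 only.

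By rank in the relaxed list of each replicate, hsp-60 and hsp-90 came before the other 4 members, and the order below them differed. Counted over nuclear peaks, hsp-60 ranked 85 in replicate 1 and 38 in replicate 2, and hsp-90 ranked 68 and 92, so the order of this pair turned between the replicates. The peak at hsp-110 ranked 587 in replicate 1 and 150 in replicate 2, and that at dnj-13 ranked 225 and 696. The ratio of replicate 1 to replicate 2 signal ran from 0.593 at hsp-110 to 1.46 at hsp-3, with 0.758 at hsp-1, 0.805 at hsp-60, 1.15 at hsp-90 and 1.38 at dnj-13. Over the 375 nuclear optimal peaks matched in both replicates the ratio had a median of 0.975, quartiles of 0.731 and 1.26, and a range from 0.259 to 3.37. Thus hsp-110 was below the lower quartile and hsp-3 and dnj-13 were above the upper one. Below the top pair, hsp-3 was above dnj-13 and both were above hsp-1 and hsp-110 in replicate 1, while in replicate 2 hsp-110 and hsp-1 were above hsp-3 and dnj-13. The −log10 of the q-value was 2.18 at every optimal peak, from 2.24 to 2.92 at the members in replicate 1 and from 1.37 to 1.74 in replicate 2.

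**Figure D3:**
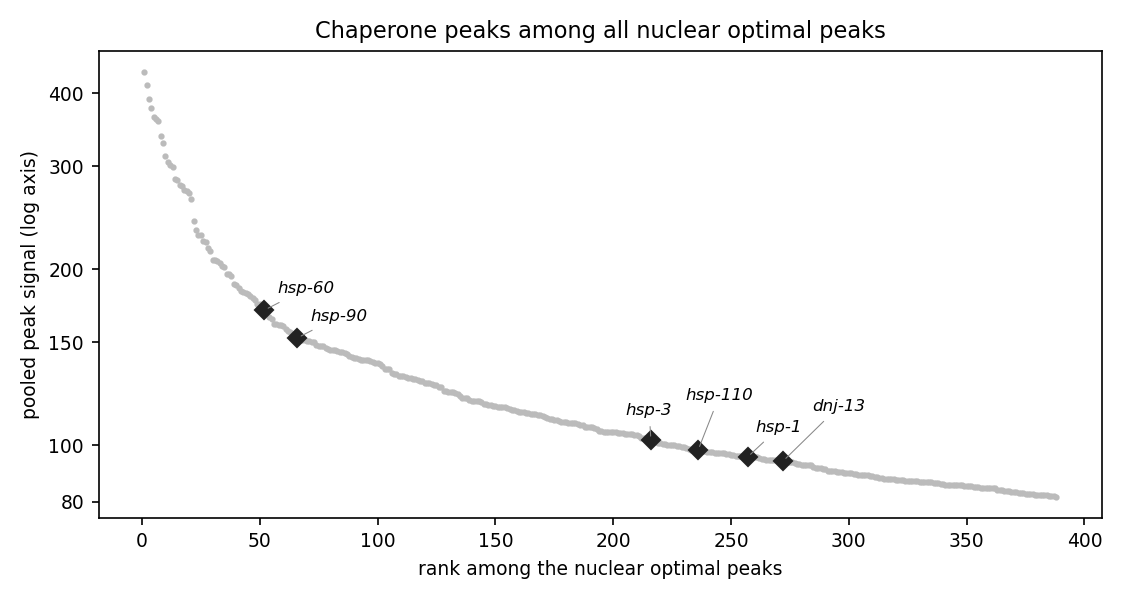
Pooled signal (log axis, units of the authors' peak caller) of the 388 nuclear optimal peaks against their rank, with the 6 chaperone peaks as labelled diamonds. The peaks at hsp-60 and hsp-90 stand at ranks 52 and 66, and the other 4 lie between ranks 216 and 272.

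In the rank plot the 6 chaperone peaks fell into a high pair and a group of 4 in the lower part of the list. Their signals ran from 93.8 to 170 with a median of 99.95, against a range of 81.7 to 435 and a median of 107 over all 281 genes with an optimal peak. Their distances from summit to start ran from 4 to 621 bp with a median of 307 bp, against 4 to 992 bp and a median of 269 bp.

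Neighbouring starts at these promoters are only described, because the members were chosen with results of these data known. Nothing is read from the shares below. For 3 of the 6 members with an optimal peak, hsp-60, hsp-90 and hsp-110, another coding gene had its start nearer to the summit, against 25.3% of all genes with an optimal peak. At hsp-1 and dnj-13 the start of a noncoding gene was nearer than that of the member. F26D10.23 started 169 bp from the hsp-1 summit, and the nearer F54D5.22 gene 42 bp from that of dnj-13. A coding gene on the opposite strand started within 1000 bp upstream of 5 of the 8 members, namely hsp-60, hsp-90, hsp-110, dnj-13 and hsp-6, against 18.7% of all genes. Among the genes with an optimal peak the count was 4 of 6 members, against 36.7%. The divergent count was added after the neighbours had been seen. Peak position cannot tell which gene of such a pair a peak belongs to.

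The bases at the summits were compared with the other peaks in a window of 50 bp on each side. GAGAGA, or TCTCTC on the other strand, was present at 2 members, hsp-1 and dnj-13, and at 24.9% of the 281 genes with an optimal peak. Counted by peak, it was within 50 bp of 109 of the 388 nuclear optimal summits (28.1%, the members included), against 9.12% of the 9995 relaxed peaks that overlap no optimal one. In hsp-1 the repeat began 1 bp downstream of the summit, and in dnj-13 it lay 25 to 32 bp downstream. The share at the members was near that of the list as a whole.

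The heat shock element was searched as alternating 5-base units NGAAN and NTTCN, either 3 in a row or, after the sequences had been seen, 2 in a row (GAANNTTC or TTCNNGAA), on both strands; each element of 3 contains both forms of 2. An element of 3 units was within 50 bp of 1 member summit, that of hsp-110, against 1.03% of nuclear optimal summits and 0.450% of relaxed-only ones. It covered III:8447134-8447146 and began at the summit base itself. An element of 2 units was present at 4 of the 6, hsp-1, hsp-90, hsp-110 and dnj-13, against 5.93% of nuclear optimal summits and 10.5% of relaxed-only ones. These matches lay 23 to 30 bp downstream of the summit of hsp-1, 11 to 18 bp downstream at hsp-90 and 9 to 16 bp downstream at dnj-13. At hsp-60 an element of 3 units was centred 70 bp upstream of the summit, outside the stretch printed above. Within 150 bp, an element of 3 units was thus present at 2 of the 6 members, hsp-110 and hsp-60. The shares in that window were 2.32% of nuclear optimal summits and 1.62% of relaxed-only ones. No heat shock element was found within 150 bp of the summit of hsp-3.

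**Figure D4:**
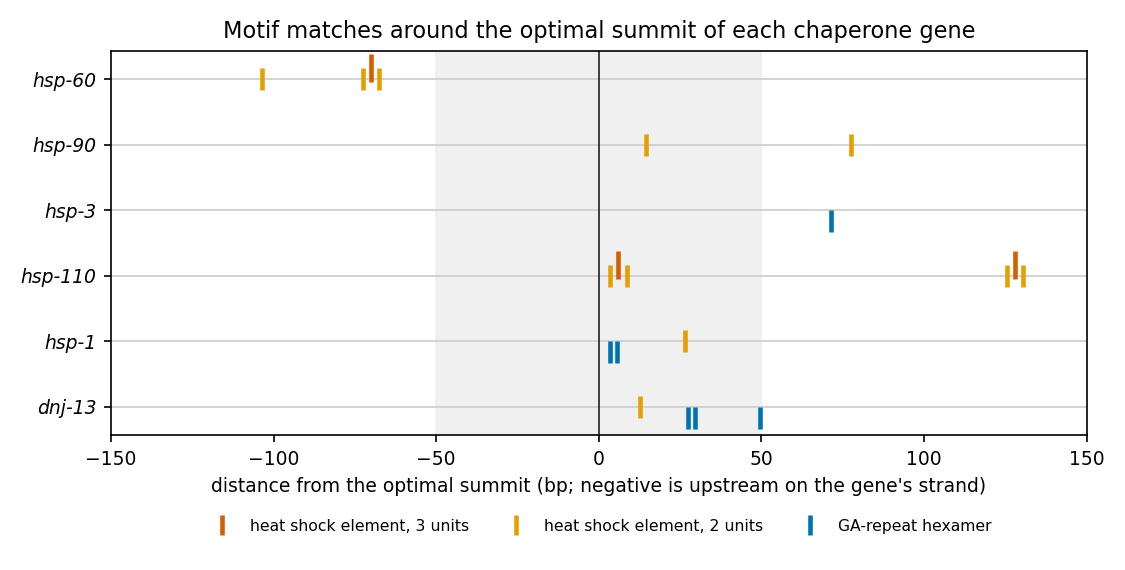
Centres of heat shock element and GA-repeat matches (coloured ticks) by distance in bp from the optimal summit of the 6 chaperone genes, negative upstream on the gene's strand, with the window of 50 bp on each side shaded. Matches to 2 units of the heat shock element fall in the shaded window at hsp-90, hsp-110, hsp-1 and dnj-13, and at hsp-60 all 3 such matches lie outside it.

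Most heat shock elements of 3 units close upstream of the members' starts were more than 50 bp from an optimal summit. In the 500 bases upstream of any start, an element of 3 units was found at 5 of the 8 members, hsp-1, hsp-6, hsp-90, hsp-110 and dnj-13, against 4.11% of all genes. Its centre was 6 bp from the optimal summit at hsp-110, where a second copy was 128 bp away, 208 bp away at dnj-13 and 239 bp away at hsp-1. At hsp-90 both copies sat by the outer start, 851 and 921 bp from the summit. At hsp-6, which had no optimal peak, the element was 28 bp from the summit found in replicate 1 alone. An element of 3 units therefore was within 50 bp of the optimal summit at 1 of the 4 members that had such an element in this stretch and an optimal peak. The element near the hsp-60 summit lay outside these 500 bases and is not among them. In the same 500 bases, an element of 2 units was found at 7 of the 8 members, against 53.7% of all genes.

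Other letters were searched in the same windows. CCAAT or ATTGG, the core of the site of nuclear factor Y, was within 50 bp of 3 summits, hsp-60, hsp-90 and hsp-3, against 13.4% of nuclear optimal summits and 1896 of the 9995 relaxed-only ones. It too was chosen after the sequences had been seen. In the 500 bases upstream of a start it was found at 5 of the 8 members, against 68.6% of all genes. It occurred in hsp-60 as a pair of copies, 7 to 11 and 37 to 41 bp downstream of the summit. TGACGTG, the core of a site known from the unfolded protein response in mammals, was not within 50 bp of any of the 6, against 1.55% of nuclear optimal summits. In the 500 bases upstream of a start it was found at both ER members, hsp-3 and hsp-4, and at no other member, against 5.41% of all genes. At hsp-3 it was centred 125 bp from the optimal summit. At hsp-4, which lacked a peak, it covered II:7352722-7352728. This was 210 bp upstream of the start at II:7352518 and closer to the outermost start, II:7352645.

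The homeodomain letters were absent within 50 bp of the members' summits, but they were rare at all nuclear optimal summits. Their absence in this window therefore does not set the members apart. TGATAC, letters of a site described for sine oculis proteins of other animals, was found at 0 of the 6 summits. It was at 3.09% of nuclear optimal summits, against 2.82% of relaxed-only ones. TAATTA, a core bound by many homeodomain proteins, was at 0 of the 6 and at 1.55% of nuclear optimal summits, against 6.57% of relaxed-only ones. In the 500 bases upstream of a start, TAATTA was found at 2 of the 8 members, hsp-60 and hsp-90, against 30.4% of all genes, and TGATAC at 0 of the 8, against 18.4%. TATAAA was at 0 of the 6 and at 6.19% of nuclear optimal summits. The share of G and C in these windows ran from 43.6% at hsp-90 and hsp-110 to 60.4% at hsp-3, with a median of 52.0%, against a median of 50.5% at all nuclear optimal summits and 37.6% at relaxed-only ones. Base composition thus differed between the optimal and relaxed-only summits, while the median at the members was near that of all nuclear optimal summits. Its part in the motif shares was not tested. A match is a description of letters and does not show that a protein bound them.

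Most other chaperone genes lacked an optimal peak. In 10 lists of chaperone and stress genes with the members left out, 9 of 114 genes (7.89%) had an optimal peak and 59 had a pooled relaxed one, beside the 1.41% and 20.1% of all genes given above. These lists too were drawn up with earlier results known. Among 7 other HSP70 and HSP110 genes, the 2 with an optimal peak were the neighbouring copies F44E5.4 and F44E5.5, HSP70 genes that share the peak at II:11759396-11759520. The pooled signal was 103, with 65.4 in replicate 1 and 46.2 in replicate 2. The summit was 133 bp upstream of F44E5.4 and 218 bp upstream of F44E5.5. Likeness of the copies and its effect on the placement of reads were not tested.

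Partners of the HSP70 cycle were represented by single genes. Of 4 nucleotide exchange and adaptor genes, bag-1, a BAG-domain exchange factor, had an optimal peak (signal 84.5), and all 4 had a relaxed one. Of 28 other J-protein genes, dnj-9 had one (signal 126, with 64.4 in replicate 1 and 64.9 in replicate 2), and 16 had a relaxed one. None of 11 HSP90 family and co-chaperone genes had an optimal peak, while 7 had a relaxed one.

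In the organelles, 2 of 14 mitochondrial folding, import and proteolysis genes had an optimal peak. They were Y22D7AL.10, through the peak it shares with hsp-60, and tomm-20 (signal 116), which encodes a receptor for import across the outer membrane. Of 10 ER folding genes, crt-1, which encodes the calcium-binding chaperone calreticulin, had one, with a pooled signal of 114 and 61.3 in replicate 1 against 53.7 in replicate 2. The optimal peaks of the ER genes were thus at hsp-3 and crt-1.

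Of 8 subunits of the cytosolic chaperonin CCT, cct-1 (signal 113) and cct-8 (161) had an optimal peak, both nearer another coding start. The lists of 12 small heat shock proteins, 6 prefoldin subunits and 14 regulators of the heat shock and unfolded protein responses had none, and 3, 5 and 8 of their genes had a relaxed peak. For scale, 16 of 78 ribosomal protein genes (20.5%) had an optimal peak. Of 33 proteasome subunit genes, rpn-3 had one, which is the peak it shares with hsp-110.

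**Figure D5:**
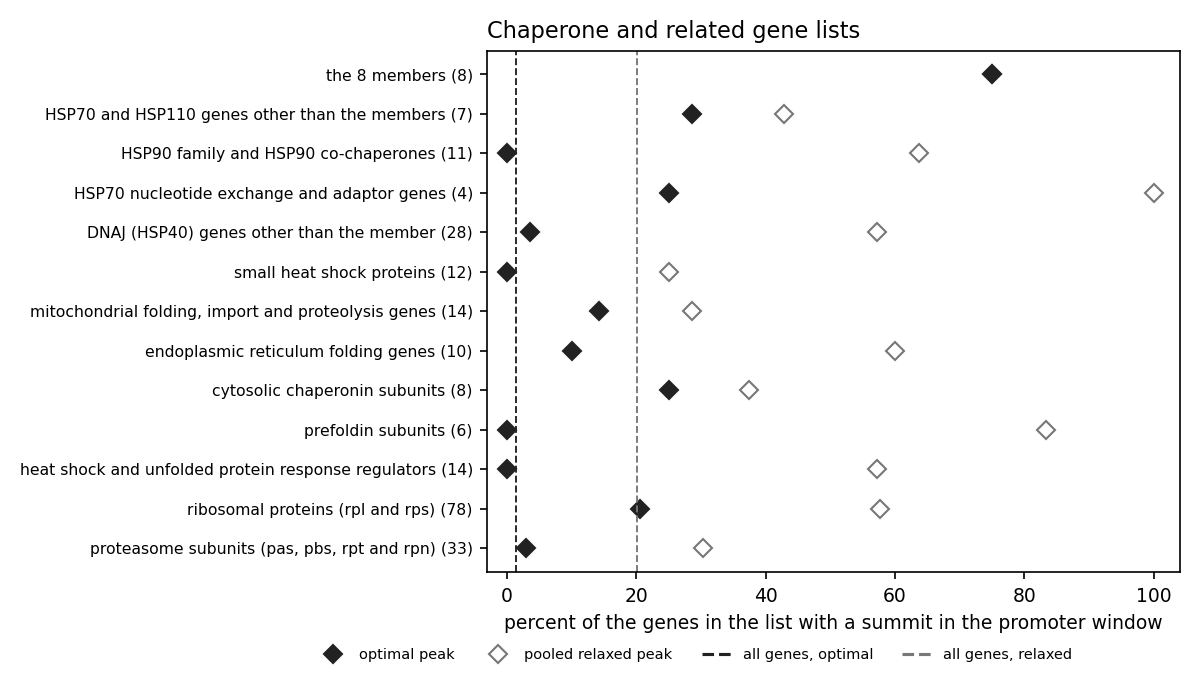
Percent of the genes in each list with a summit in the promoter window, for the optimal list (filled) and the pooled relaxed list (open), with the number of genes in parentheses and dashed lines for all genes. The 8 members, chosen with these peaks known, are at 75% in both lists, so that their symbols coincide, and 4 of the lists are at 0% for optimal peaks.

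The plot of gene lists shows that relaxed peaks were present at 25% or more of each list, including the 4 without an optimal peak. Lists of 4 to 14 genes move in large steps, so their percentages are coarse. No difference between lists was tested.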

How the data were processed

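Peak lists on build ce11 were used for 2 replicates and for both pooled. For every peak the authors' caller gave a signal, which was deposited with the −log10 of its q-value, which the optimal list held at 1 value and which was only described. Per the file records deposited with the samples, each relaxed list was made from alignments and a control alignment, and the optimal list from the replicate and pooled lists. The aligner, caller and thresholds are not stated in the sources at hand. The control was not analysed here, and the lists on build ce10 were not used here. No read counts were used, so depth is unknown.

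Summits were placed against Ensembl release 115 gene starts, which in worms are often sites of trans-splicing rather than of initiation. Replicate summits were matched within 150 bp. Mitochondrial peaks were left out of ranks, unless stated, and of motif shares. Links and motif searches were tested on simulated data. The members and lists were chosen with earlier results of these data known. Named genes were the members, neighbours nearer their summits or sharing them, and listed genes with an optimal peak; symbols of 6 listed genes had no match. Genes nearest to hsp-1, hsp-3 and hsp-6 summits, and the gene dhgd-1, were named after their values were seen. Other windows, starts, thresholds and motif lengths were tried. Python 3.11.15, numpy 2.4.6, pandas 2.3.3, pysam 0.24.0 and matplotlib 3.10.9 were used.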

Additional observations from a re-analysis of the deposited data

How the results depend on the processing

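Of 29 alternatives run, 25 gave a count within 1.5 times the reported one. With counts this small the limit is loose, since a fall from 6 to 4 or from 3 to 2 still met it. The 6 members with an optimal peak became 2 (hsp-60 and hsp-90) with the stronger 206 optimal peaks, and 3 (hsp-1, hsp-3 and dnj-13) when each peak was linked only to the nearest coding start within 5 kb. The 3 members with a nearer coding neighbour became 1 (hsp-110) with the innermost start of each gene. The 2 members with GAGAGA became 1 (hsp-1) with 25 bp on each side of the summit. Replacing the optimal list by the 412 strongest peaks of 1 replicate gave 4 to 4 members, hsp-60 and hsp-90 both times, with hsp-1 and hsp-110 from replicate 2 (without replicate 1) and hsp-3 and dnj-13 from replicate 1 (without replicate 2); the count with a nearer neighbour ran from 2 to 3. A window from 500 bp upstream lost hsp-60, the outermost starts lost hsp-90, and requiring replicate summits within 100 bp lost hsp-1, each leaving 5, while the innermost starts lost hsp-60 and hsp-3, leaving 4. No paired analysis was possible because there was 1 group of 2 replicates. The depth of the libraries is unknown, which limits what the lack of a peak at hsp-4 or hsp-6 can show.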
